A study of Homo sapiens with 2 samples.

Results

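The 4 lecticans and the 4 link proteins, 8 genes in all of 35812 symbols measured, were described for H3K9me3, the histone mark of constitutive heterochromatin, in KBM7 cells, a near-haploid human line from a chronic myeloid leukemia. The lecticans are ACAN, VCAN, NCAN and BCAN, and the link proteins are HAPLN1, HAPLN2, HAPLN3 and HAPLN4. The genes were chosen by family membership, and with the high score and the wide peak of ACAN in these same data already known, so all levels below are a description. The study holds 1 library immunoprecipitated with the antibody ab8898 against H3K9me3 and 1 IgG library, both from untreated KBM7 cells as far as the labels say. Only the H3K9me3 library was analysed here, so no value has a replicate, a control or a test beside it. This line is known for an extra copy of chromosome 8 and of part of chromosome 15, and ACAN and HAPLN3 lie on that part, called the chromosome 15 piece below. The values are of a chromatin mark and not of RNA, so the identity of the cells was not checked against markers.

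Lecticans are large chondroitin sulfate proteoglycans that bind hyaluronan through a globular domain at one end and carry a C-type lectin domain at the other. Link proteins are small relatives of the hyaluronan-binding domain, and they lock a lectican onto the hyaluronan strand. Aggrecan, the product of ACAN, gives cartilage its resistance to compression and is also part of the perineuronal nets of the brain. Versican, from VCAN, is found in many soft tissues, whereas neurocan (NCAN) and brevican (BCAN) belong to the nervous system. HAPLN1 is the cartilage link protein, HAPLN2 and HAPLN4 are brain link proteins, and HAPLN3 is more widely expressed. In the human genome each lectican gene has a link protein gene beside it, which gives 4 neighbouring pairs.

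ACAN was covered by H3K9me3 over most of its length, and the other 7 genes carried short peaks or none. The gene score is the number of reads over the gene interval divided by its length in kb. ACAN (chromosome 15, 89346674 to 89418585, hg19, plus strand) held 14912 reads over 71.9 kb, a score of 207 reads per kb (95% Poisson interval 204 to 211). The 7 other genes scored between 28.6 and 72.4, with a median of 50.2, so ACAN stood above all of them. The median was 43.5 over all symbols and 34.3 over protein-coding symbols. ACAN lay at the percentile 94.01 of all symbols and 99.4 of protein-coding ones. Poisson and other intervals given here cover counting error only.

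In order of score ACAN was followed by HAPLN4 at 72.4 (66.3 to 78.9), NCAN at 66.8 (64.3 to 69.4) and HAPLN1 at 63.2 (61.5 to 64.9). The counting intervals of HAPLN4 and NCAN overlap, and so do those of NCAN and HAPLN1, whereas those of HAPLN4 and HAPLN1 do not. Overlap of separate intervals does not decide whether 2 scores differ. The ratio of NCAN to HAPLN4 had an interval that includes equality (0.840 to 1.02), and that of NCAN to HAPLN1 was not computed. BCAN scored 50.2 (47.0 to 53.6), HAPLN3 41.2 (38.3 to 44.3), VCAN 34.6 (33.5 to 35.7) and HAPLN2 28.6 (24.6 to 33.1). These 4 intervals do not overlap each other. The order is not corrected for copy number, and HAPLN3 lies on the chromosome 15 piece. Divided by the pooled level of the region, HAPLN3 was 0.475 times the median of all symbols. That is below VCAN at 0.803 and HAPLN2 at 0.664. The median score was 58.5 over the 4 lecticans and 52.2 over the 4 link proteins, and ACAN alone separates the ranges: without it the lecticans lie within the range of the link proteins.

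**Figure D1:**
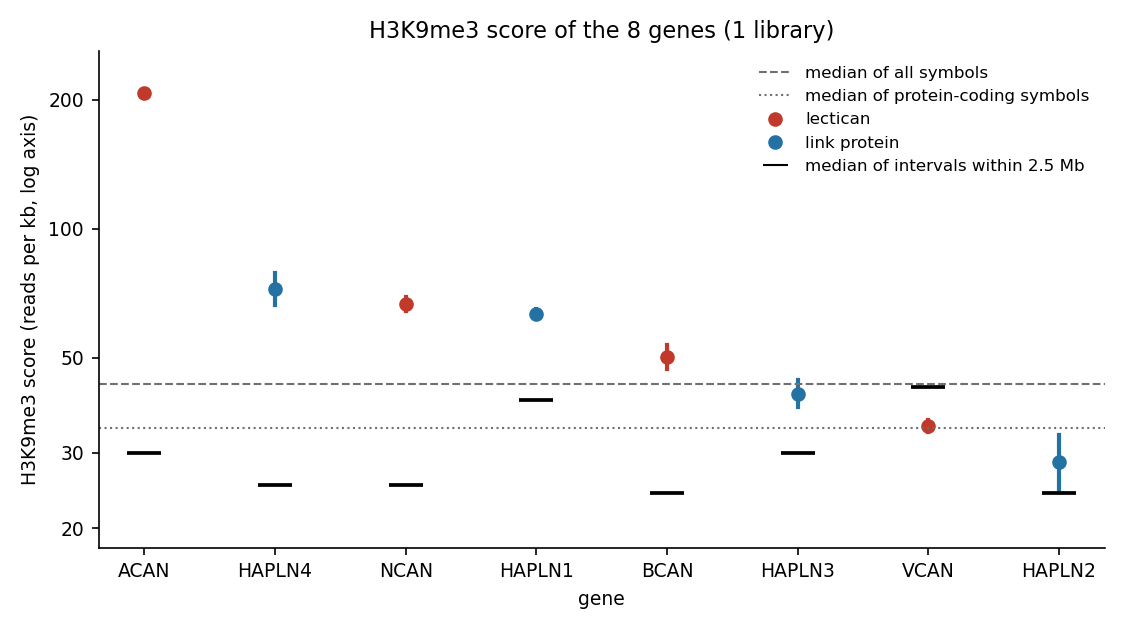
H3K9me3 score in reads per kb (log axis) of the 8 genes, lecticans in red and link proteins in blue, with 95% Poisson intervals as vertical lines; black dashes are the median of intervals within 2.5 Mb of each gene and the horizontal lines the medians of all and of protein-coding symbols. ACAN at 207 stands alone, and VCAN at 34.6 is the gene below its local median as drawn. The window of HAPLN3 reaches past 90 Mb of chromosome 15, and kept below 90 Mb it puts HAPLN3 at 0.558 times its local median.

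Of the 8 genes, 6 had 1 or more peaks over the gene interval, against 36.8% of all symbols and 43.7% of protein-coding ones. Longer genes have more room for a peak, and among protein-coding symbols within 1.5 times the length of each gene the share with a peak ran from 19.98% for HAPLN2 to 75.8% for VCAN. A score of at least 2 times the median of all symbols was reached by 1 of the 8, ACAN, against 20.9% of all symbols and 10.3% of protein-coding ones. A peak of 10 kb or more lay over 1 of the 8, again ACAN, against 2.13% of protein-coding symbols. The start of 1 of the 8, ACAN, lay inside a peak, against 7.42% of protein-coding symbols. Since ACAN was known to carry a wide peak when the genes were chosen, nothing is read from these shares for it.

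The mark over ACAN began before the gene and stopped before its end. A peak of 54600 bp (chromosome 15, 89329501 to 89384100) started 17.2 kb before the ACAN start and reached 37.4 kb into the gene. After a gap of 600 bp a peak of 14400 bp (89384701 to 89399100) followed, which ended 52.4 kb into the gene. Together they covered 51827 bp, or 72.1% of ACAN, and the last 19.5 kb of the gene held no peak. By parts of 25% of the gene length from its start, cover was 100%, 100%, 88.3% and 0%. The first peak ranked 10 by width among 126965 peaks and 4 among those outside chromosome 8.

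**Figure D2:**
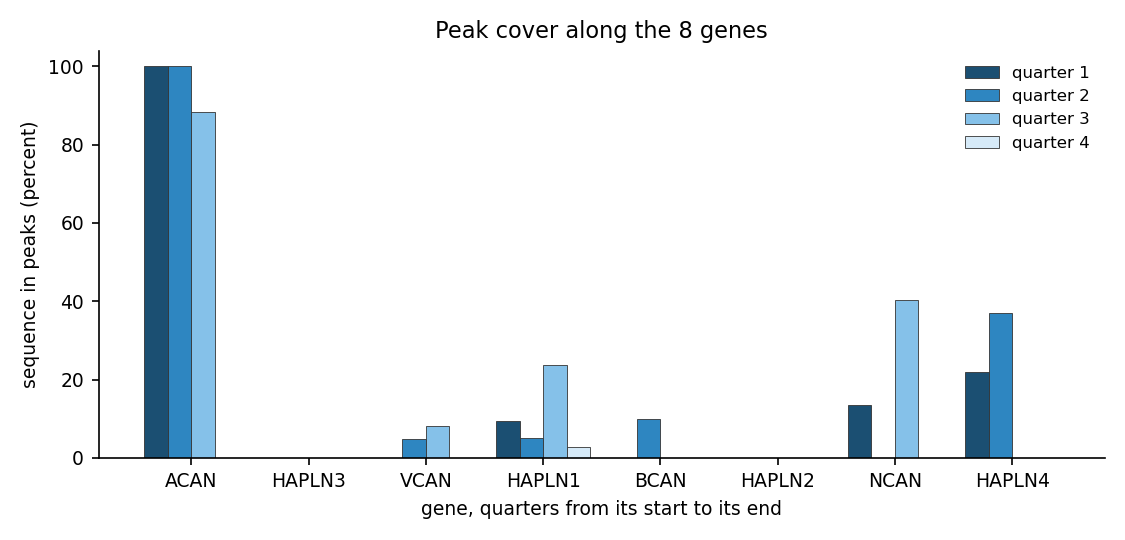
Percent of sequence in H3K9me3 peaks in the 4 equal parts of each gene, from its start to its end in the direction of transcription. The first parts of ACAN are fully covered and its last part is bare, while cover in any part of the other genes reaches at most 40.2%, in NCAN.

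The peaks over ACAN were the last of a longer run on one side of the gene. Between the end of ISG20, which encodes an interferon-induced exonuclease, and the start of the HAPLN3 interval there were 11 peaks, from 89202301 to 89399100 of chromosome 15. They covered 80.9% of the 196.8 kb they span, and the widest gap between them was 11850 bp. The run began 2.59 kb after the end of ISG20, and ISG20 itself had no peak and a score of 39.6 (37.0 to 42.5). The short non-coding interval RP11-343B18.2, which lies before ACAN and within the peak of 54600 bp, scored 254 (228 to 283). On the other side the next peak started at 89462851, 63.8 kb after the run. HAPLN3 and MFGE8, the gene of the milk fat globule protein lactadherin, both lie within this stretch without peaks. Beyond the stretch peaks were again frequent. In the 100 kb after HAPLN3 8 peaks covered 39.1%, against 73.3% in the 100 kb before ACAN. MFGE8 scored 42.1 (38.9 to 45.5), within the counting interval of HAPLN3.

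HAPLN3 (chromosome 15, 89420519 to 89438857, minus strand) lies 1.93 kb from the end of ACAN and held 756 reads over 18.3 kb. ACAN and HAPLN3 are transcribed towards each other. The ACAN score was 5.03 times that of HAPLN3 (exact binomial interval of the ratio 4.68 to 5.42). Cover was 72.1% for ACAN and 0% for HAPLN3, and the start of HAPLN3 was 24.0 kb from the nearest peak. Both genes lie on the piece with an extra copy, so their ratio does not change when both scores are divided by the level of that piece.

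**Figure D3:**
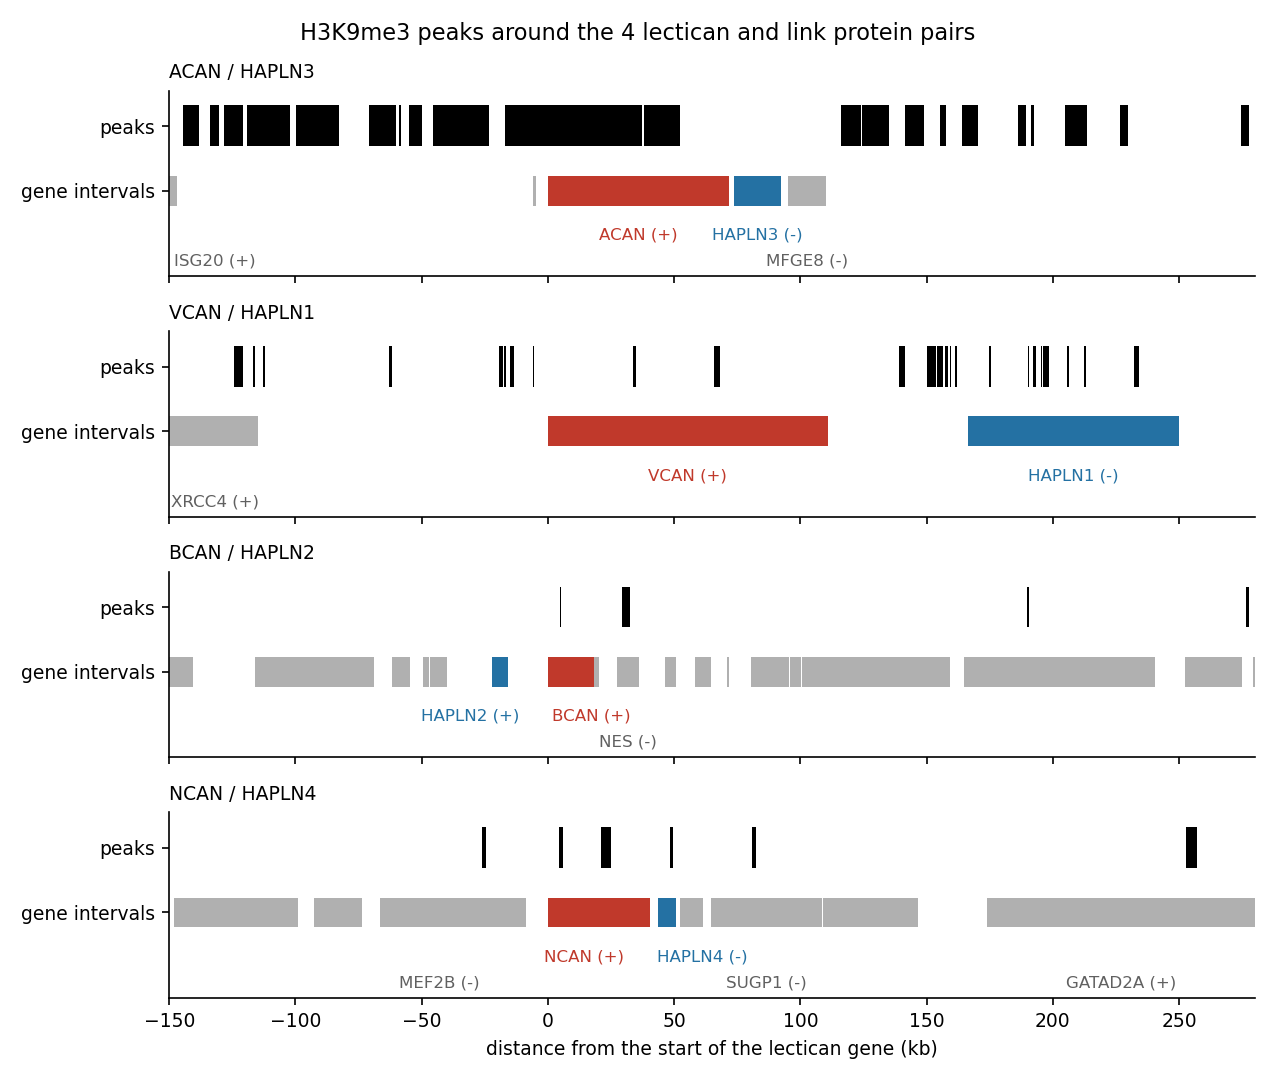
Peaks (black) and gene intervals around the 4 pairs, by distance in kb from the start of the lectican gene, with lecticans in red, link proteins in blue, other intervals in grey and strands in brackets. A run of wide peaks ends inside ACAN and leaves HAPLN3 bare, with more peaks beyond MFGE8. Between VCAN and HAPLN1 lie 8 peaks, and the other 2 pairs hold a few narrow peaks.

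The promoters of these genes differ widely in CpG dinucleotides, which is shown here because ACAN is the gene whose start lies in a peak. The 250 bases before the RefSeq start were found for 7 of the 8 genes, NCAN being the other (GRCh38.p14, a different build from that of the peaks, so starts were not matched by position). Of these the 4 below are ACAN and BCAN, with the most CpG, and HAPLN3 and HAPLN1, the link proteins beside ACAN and VCAN. CpG is in capitals, and each is written 5' to 3' on the strand of its gene: ACAN at chr15:88803186-88803435 (plus), BCAN at chr1:156641867-156642116 (plus), HAPLN3 at chr15:88895545-88895794 (minus) and HAPLN1 at chr5:83720856-83721105 (minus).
ACAN: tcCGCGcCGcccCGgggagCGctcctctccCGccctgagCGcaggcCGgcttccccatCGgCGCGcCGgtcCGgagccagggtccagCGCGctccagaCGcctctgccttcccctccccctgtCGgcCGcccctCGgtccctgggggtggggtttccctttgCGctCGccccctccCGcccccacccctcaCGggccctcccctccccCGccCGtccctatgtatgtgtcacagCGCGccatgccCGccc
BCAN: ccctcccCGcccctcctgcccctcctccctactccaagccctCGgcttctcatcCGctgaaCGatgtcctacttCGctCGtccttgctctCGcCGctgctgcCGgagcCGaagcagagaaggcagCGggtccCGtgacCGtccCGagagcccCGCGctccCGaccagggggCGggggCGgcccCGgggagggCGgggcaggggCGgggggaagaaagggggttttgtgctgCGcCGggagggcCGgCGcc
HAPLN3: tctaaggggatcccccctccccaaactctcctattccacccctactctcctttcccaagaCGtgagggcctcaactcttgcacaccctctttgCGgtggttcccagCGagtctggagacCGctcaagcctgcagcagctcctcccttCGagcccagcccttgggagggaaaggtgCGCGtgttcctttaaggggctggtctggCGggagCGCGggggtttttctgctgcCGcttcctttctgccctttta
HAPLN1: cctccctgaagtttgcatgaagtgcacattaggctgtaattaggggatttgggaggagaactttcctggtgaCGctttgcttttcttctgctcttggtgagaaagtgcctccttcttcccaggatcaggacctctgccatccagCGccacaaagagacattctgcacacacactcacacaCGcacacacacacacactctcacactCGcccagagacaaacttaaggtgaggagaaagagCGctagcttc

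The ACAN stretch held 28 CpG with 77.2% G and C, and 15.5% of 27305 promoters held as many or more. BCAN had 26 CpG, close to ACAN, but its start was 4.72 kb from the nearest peak. HAPLN4 had 14 CpG, VCAN 12, HAPLN3 11, HAPLN1 5 and HAPLN2 4, and the median of all promoters was 11. The motif GGGCGG, the GC box, was counted on both strands: 6 matches in ACAN, 5 in BCAN, 1 each in VCAN, HAPLN2 and HAPLN4, and 0 in HAPLN3 and HAPLN1. It was present in 42.3% of all promoters of this length, and 1.58% held 6 or more. Of 2830 protein-coding symbols with as many CpG as ACAN or more, 101 (3.57%) had their start in a peak. By CpG tertile this share was 10.5% for symbols with up to 11 CpG, 7.004% for 12 to 23 and 4.46% for 24 or more. ACAN thus belongs to the tertile in which starts were least often inside a peak in this library.

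On the chromosome 15 piece ACAN ranked high and HAPLN3 low. From 60 to 90 Mb, bounds set in earlier work after these data were seen, intervals held 91.0 reads per kb when pooled, 2.02 times the 45.1 of autosomes other than 8 and 15. ACAN was 2.28 times the pooled level of the piece and HAPLN3 0.453 times. Among the 232 protein-coding symbols there, whose median was 56.5, ACAN ranked 3 by score and HAPLN3 164. Peaks lay over 94 of the 232 (40.5%), HAPLN3 being among those without one. The 2 genes above ACAN by score, looked up after the values were seen, were NEIL1, a DNA glycosylase of base excision repair, at 302 (290 to 314) over 8.26 kb, and C2CD4B at 263 (240 to 288) over 1.75 kb. By cover 5 were above ACAN, also looked up afterwards: C2CD4B at 100%, ANKRD34C at 93.2%, NEIL1 at 91.3%, STRA6, a receptor for retinol-binding protein, at 86.5% and CYP11A1, the enzyme that starts steroid hormone synthesis, at 73.0%. All 5 are shorter than ACAN, the longest being STRA6 at 30.2 kb.

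**Figure D4:**
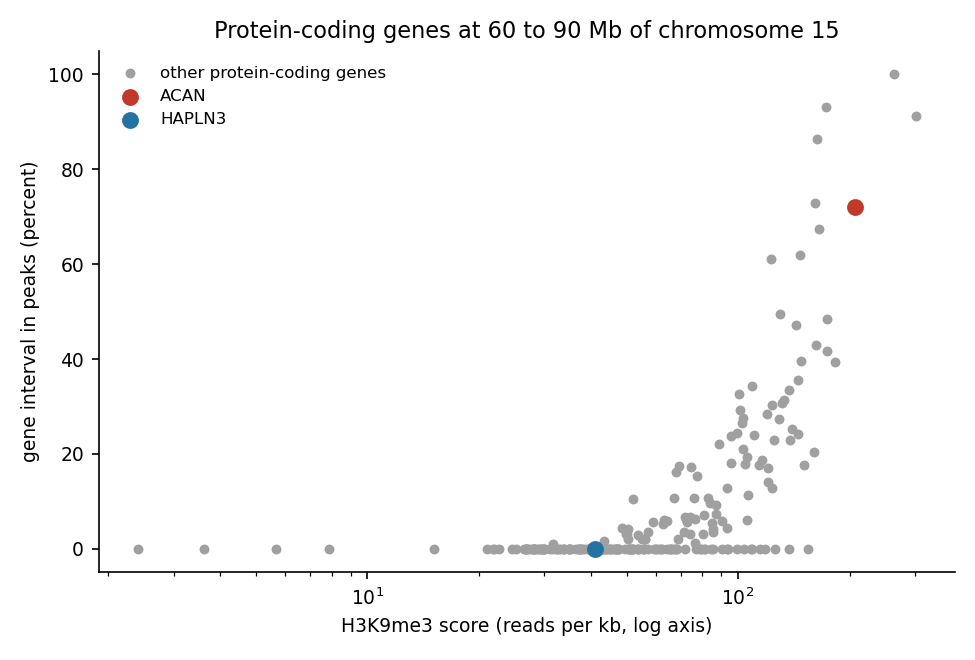
Score in reads per kb (log axis) against the percent of the gene interval in peaks for protein-coding genes at 60 to 90 Mb of chromosome 15, with ACAN in red and HAPLN3 in blue; genes with a score of 0 are not drawn. ACAN lies at 207 and 72.1%, and HAPLN3 lies on the line of genes without a peak.

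The widest peak of the piece was that over ACAN, and the next spanned 43350 bp. Besides ACAN, the symbols with the widest overlapping peaks were RP11-343B18.2, under the same peak as ACAN, and then MIR184 and RP11-17L5.4, both under the peak at 79480501 to 79523850. MIR184 is a microRNA gene with a score of 1726 over a very short interval, and RP11-17L5.4 scored 183. Peaks of the piece had a median width of 3600 bp, and 139 of its 1000 peaks reached 10 kb. How far the extra copy widens the peak calls was not tested.

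Against genes of its own length ACAN also ranked near the top. Among 3360 protein-coding symbols within 1.5 times its length, other than the 8 genes, it lay at the percentile 99.9 by score, and 0.327% had a higher cover. The 4 with a higher score, looked up afterwards, were PLEC, ZNF250, C8orf42 and GATA4, all on chromosome 8. Their scores were 281, 267, 212 and 207.44, against 207.36 for ACAN, and chromosome 8 is in an extra copy as well. This ranking is not corrected for copy number, while most of the other genes lie outside both extra copies. Divided by the pooled level of its region, ACAN was 2.39 times the median of all symbols. The ranking was not repeated at that level, and MAPK9 on chromosome 5, of like length, scored 181. The same percentiles were 67.9 for HAPLN3, 40.3 for VCAN, 82.2 for HAPLN1, 74.6 for BCAN, 55.7 for HAPLN2, 84.2 for NCAN and 83.6 for HAPLN4.

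VCAN and HAPLN1, on chromosome 5, showed the opposite order from ACAN and HAPLN3, the link protein being higher. VCAN (82767284 to 82878122, plus strand) held 3832 reads over 110.8 kb and HAPLN1 (82933624 to 83017432, minus strand) held 5298 over 83.8 kb. The HAPLN1 score was 1.83 times that of VCAN (1.75 to 1.91). VCAN had 2 peaks, of 1350 and 2250 bp at 33.6 and 65.7 kb from its start, which covered 3.25% of it. HAPLN1 had 10 peaks of 300 to 2100 bp, which covered 10.2%, and the first lay 15.98 kb from its start. Per 100 kb this was 1.804 peaks in VCAN and 11.9 in HAPLN1.

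At this locus cover was higher between the 2 genes than in either of them or in the flanks. The genes are transcribed towards each other across 55.5 kb. The stretch between them held 8 peaks of up to 2550 bp, and 18.6% of it lay in peaks. In the 100 kb before VCAN and the 100 kb after HAPLN1 cover was 5.25% and 6.60%. The antisense interval VCAN-AS1 lies within VCAN over 49.97 kb and shares its reads. VCAN scored 34.7 outside it, against 34.4 for VCAN-AS1, so both parts of the gene had about the same level. HAPLN1 contains intervals named 7SK and U6, of 0.153 and 0.096 kb, and a peak of 300 bp lay over part of U6. XRCC4, a DNA repair gene and the nearest before the pair, scored 42.7 (41.9 to 43.5), and the nearest interval after it, a copy named U4, scored 75.8 (36.3 to 139) on 10 reads.

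BCAN and HAPLN2, on chromosome 1, had few reads and a single peak, which lay in BCAN. BCAN (156611182 to 156629324) held 911 reads over 18.1 kb and HAPLN2 (156589086 to 156595517) held 184 over 6.43 kb, and both lie on the plus strand, 15.7 kb apart. The BCAN score was 1.76 times that of HAPLN2 (1.497 to 2.07). The peak, of 450 bp, lay 4.72 kb from the BCAN start and covered 2.48% of the gene. HAPLN2 had no peak, and its start was 26.8 kb from the nearest one. BCAN shares 71.8% of its interval with the antisense interval RP11-284F21.7, which scored 42.5. The stretch between the genes and the 200 kb before HAPLN2 held 0 peaks. NES, which encodes the intermediate filament nestin of neural progenitors and is the nearest gene after BCAN, scored 70.4 (64.9 to 76.2) with a peak of 2850 bp over 33.0% of it. GPATCH4, the nearest before HAPLN2, scored 20.7 (17.5 to 24.3).

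NCAN and HAPLN4, on chromosome 19, had scores that do not differ beyond counting error. NCAN (19322782 to 19363061, plus strand) held 2692 reads over 40.3 kb and HAPLN4 (19366456 to 19373596, minus strand) 517 over 7.14 kb, and they are transcribed towards each other across 3.39 kb. The ratio of NCAN to HAPLN4 was 0.923, with an interval of 0.840 to 1.02 that includes equality. NCAN had peaks of 1350 and 4050 bp at 4.57 and 21.1 kb from its start, which covered 13.4% of it. HAPLN4 had 1 peak of 1050 bp, 1.40 kb from its start, which covered 14.7%. Both genes scored above their neighbours on either side: NR2C2AP at 19.5 (13.9 to 26.7) before NCAN and TM6SF2, a gene of liver lipid export, at 39.7 (35.6 to 44.0) after HAPLN4. In the 200 kb on either side of the pair 1.35% and 0.750% lay in peaks.

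Of the 4 pairs, 2 were higher in the lectican, 1 was higher in the link protein and 1 did not differ beyond counting error. Within 500 kb of each pair, intervals of 1 kb or more had medians of 48.5 for ACAN and HAPLN3, 36.9 for VCAN and HAPLN1, 25.2 for BCAN and HAPLN2 and 24.8 for NCAN and HAPLN4. Of such neighbours 1 of 14 scored above ACAN, 2 of 4 above VCAN, 4 of 37 above BCAN and 6 of 35 above NCAN. Relative to the median of intervals within 2.5 Mb, ACAN was 6.90 times, HAPLN4 2.86, NCAN 2.64, BCAN 2.08, HAPLN1 1.58, HAPLN3 1.37, HAPLN2 1.18 and VCAN 0.810 times. By that measure 4 genes, not 1, lay at 2 times or more. The share of all symbols at 2 times their local median was not computed, so nothing is read from this count. BCAN and NCAN lay at percentiles of 75.4 and 78.6 among the 138 and 117 intervals of 1 kb or more around them. Among all symbols their percentiles were 56.7 and 69.5, and among protein-coding symbols 69.2 and 81.2. These sets are unlike, so no local difference is read from them. The window around ACAN and HAPLN3 reaches past 90 Mb. Kept below 90 Mb, a choice made after seeing the data, it gave 2.81 times for ACAN and 0.558 times for HAPLN3, over 22 intervals with a median of 73.9.

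Other genes of the hyaluronan and proteoglycan matrix were taken from 7 lists with 105 matched symbols, and no member of them reached the uncorrected score of ACAN. Their highest score was 174 and none had a higher peak cover than ACAN. These values are not corrected for copy number, and ACAN lies on the piece with an extra copy. Divided by the pooled level of the region, ACAN was 2.39 times the median of all symbols. At that level ACAN lay below HAS1 on chromosome 19, which is outside both extra copies and scored 119. A peak lay over 62 of the 105 (59.0%), and 9 (8.57%) had a score of at least 2 times the median of all symbols, beside the 43.7% and 10.3% of protein-coding symbols given above. Of these 9, 3 lie on chromosome 8, where all 3 listed genes passed. The median score of the 105 was 41.2, against 43.5 for all symbols and 34.3 for protein-coding ones. The shares with a peak, here and for each list below, are not matched for gene length.

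The 22 genes of hyaluronan synthesis, breakdown and binding had a median of 46.2, and 13 (59.1%) had a peak, against 43.7% of protein-coding symbols. KIAA1199, now named CEMIP and involved in hyaluronan breakdown, scored highest at 174 (172 to 176), with 48.5% of it in peaks, and lies on the same piece of chromosome 15 as ACAN. HAS1, a hyaluronan synthase on chromosome 19, followed at 119 (112 to 125) with 65.6% in peaks and its start inside one. HYAL3, a hyaluronidase, was lowest at 15.4 (12.5 to 18.7). Of 10 genes of proteases that cleave lecticans, with the inhibitor TIMP3, 9 had a peak, against the same 43.7%. Of these 10, 0 passed 2 times the median, against 10.3% of protein-coding symbols, and the list median was 54.4. MMP3 and TIMP3, a stromelysin and a protease inhibitor, were highest at 77.2 (71.3 to 83.6) and 76.7 (74.5 to 78.9). ADAMTS4, an aggrecanase, was lowest at 13.1 (10.9 to 15.6).

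The 18 genes that build chondroitin sulfate chains had a median of 36.0, with 11 (61.1%) carrying a peak, against 43.7% of protein-coding symbols. CSGALNACT1, which starts the chain and lies on chromosome 8, scored 162 (160 to 163), and CHST15, a sulfotransferase, 88.1 (86.1 to 90.1). B3GAT3, which completes the linker to the core protein, was lowest at 13.1 (10.5 to 16.1). The 6 listed genes of the tenascin and fibulin families, which include ligands of lecticans, all had a peak, against 43.7% of protein-coding symbols. All 6 scored above the median of all symbols, but 0 passed 2 times that median, against 10.3% of protein-coding symbols. They are long genes, with a median length of 98.3 kb. FBLN1 scored 76.9 (75.1 to 78.6), TNR 73.3 (72.5 to 74.2) and TNN, the lowest, 54.5 (52.9 to 56.1).

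The 13 small leucine-rich proteoglycans had 1 peak-bearing gene (7.69%, against 43.7% of protein-coding symbols) and a median score of 33.6. That gene was FMOD, fibromodulin, at 77.8 (72.6 to 83.2) with 40.04% in a peak, followed by PRELP at 66.4 (62.4 to 70.6) without one. BGN, biglycan, was lowest at 23.5 (21.1 to 26.2). These genes are short, with a median length of 14.7 kb. Of the 22 other proteoglycans 11 (50%) had a peak, against the same 43.7%, with a median score of 36.6. SDC2, a syndecan on chromosome 8, scored 144 (142 to 147), SPOCK1 63.7 (63.1 to 64.3) and GPC1, a glypican, 16.2 (14.9 to 17.7). CSPG4, which lies on the chromosome 15 piece like ACAN, scored 29.8 (28.1 to 31.6) without a peak, lower than HAPLN3.

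Of the 14 matched cartilage genes 11 had a peak, against 43.7% of protein-coding symbols, and 4 had their start inside one, against 7.42%. Longer genes have more room for a peak, and the median length of these genes was 30.7 kb. Their median cover was 4.69%. SOX9, the transcription factor that directs cartilage formation, was highest at 90.5 (82.7 to 98.9), followed by COL2A1, the main cartilage collagen, at 87.1 (83.9 to 90.4). The lowest was COL9A3, a chain of collagen IX, at 19.3 (17.6 to 21.1). The median of the list was 51.6, and 2 of its genes passed 2 times the median of all symbols, which is 86.9.

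**Figure D5:**
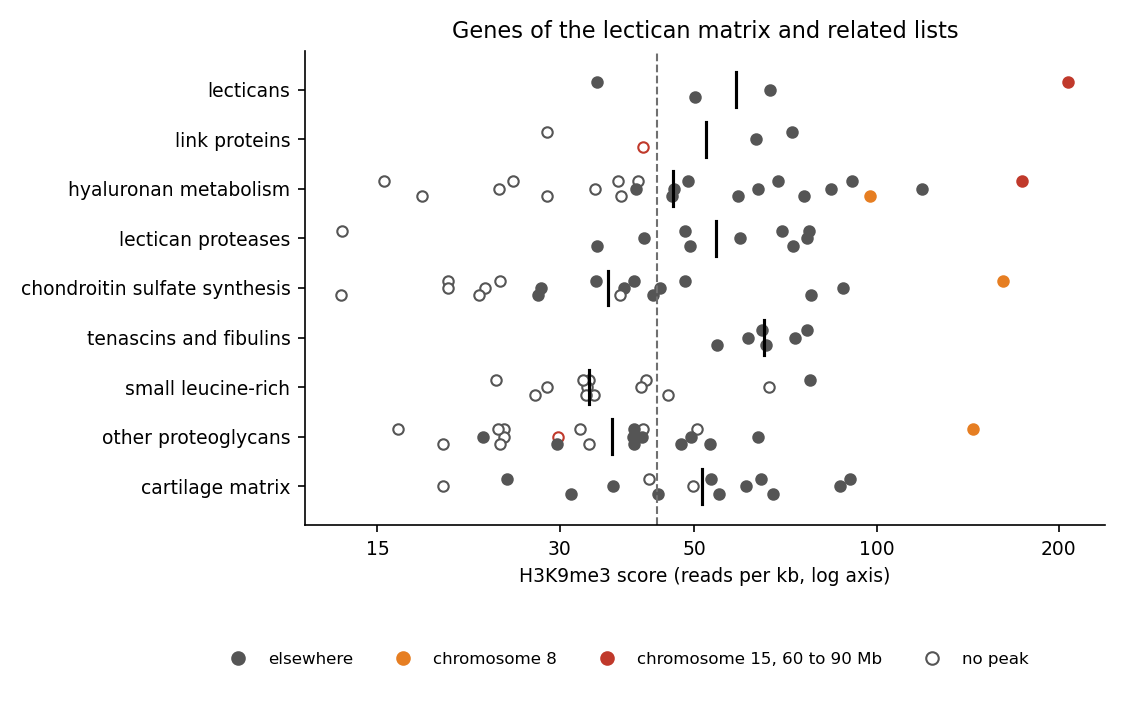
H3K9me3 score in reads per kb (log axis) of each gene in 9 lists, open circles being genes without a peak, colour the location, short black lines the list medians and the dashed line the median of all symbols. ACAN at 207 is the rightmost gene, followed by KIAA1199 at 174 on the same piece of chromosome 15 and by CSGALNACT1 at 162 and SDC2 at 144 on chromosome 8. Scores are not corrected for copy number.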

How the data were processed

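Chromatin of KBM7 cells was crosslinked, sheared, immunoprecipitated and sequenced, per the labels. The submitters' processing notes name Bowtie2, MACS and hg19 but no roles. Read filters, peak settings and use of IgG were not given in the sources used here. A raw read count per gene interval was deposited by the authors together with a score, reads over length in kb, which was checked for every interval. It is not scaled to depth and not corrected for IgG, copy number or mappability. The deposited peak list gives positions alone.

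Members and lists were chosen with earlier results of these data known. The rule for named genes took the 8 members, the 2 highest and the lowest of each list, the nearest interval on each side of a pair and the 3 symbols with the next widest peaks of the chromosome 15 piece. Of 15 listed cartilage symbols 14 were matched. The other, CNMD, is a newer name of LECT1, which was matched. For symbols with several intervals the highest score was used. Gene types came from RefSeq (GRCh38.p14, names only), with 18632 protein-coding symbols. Peak overlap was 1 bp or more. Score intervals are exact Poisson, ratio intervals exact conditional binomial, both at 95%. With 1 library no p-value was computed. Reads per member ran from 184 to 14912. The total depth is unknown. Cover and interval code was tested on simulated data. Alternatives changed the choice of interval, the background, the correction for region or local level, the peak width and the overlap. Analyses ran in Python 3.11.15 with scipy 1.17.1, pandas 2.3.3 and numpy 2.4.6, and plots in matplotlib 3.10.9.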

Additional observations from a re-analysis of the deposited data

How the results depend on the processing

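With 1 library, leaving out a replicate was not possible. No paired analysis was possible because each group holds 1 sample and no test was run. For ACAN over HAPLN3, BCAN over HAPLN2 and NCAN over HAPLN4 each setting divides both genes by the same number, or leaves both as they are, so these ratios could not move and the settings say nothing of their stability. VCAN over HAPLN1 was 0.547 and became 0.512 relative to the local median, whose windows held 17 and 15 intervals.

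Scores as times the background median moved with the background. ACAN was 4.77 times, and 2.39 divided by the pooled level of the region, 6.90 by the local median, 2.81 by the local median below 90 Mb, 6.04 against protein-coding symbols and 5.34 among intervals of 10 reads and 1 kb or more. In that order HAPLN3, at 0.949, became 0.475, 1.37, 0.558, 1.20 and 1.06. Relative to the local median HAPLN1 moved from 1.45 to 1.58, BCAN from 1.16 to 2.08, HAPLN2 from 0.658 to 1.18, NCAN from 1.54 to 2.64 and HAPLN4 from 1.67 to 2.86. Against protein-coding symbols VCAN was 1.01 (0.796 against all), HAPLN1 1.84, BCAN 1.46, HAPLN2 0.833, NCAN 1.95 and HAPLN4 2.11. Among intervals of 10 reads and 1 kb or more they were 0.890 for VCAN, 1.63 for HAPLN1, 1.29 for BCAN, 1.72 for NCAN and 1.86 for HAPLN4. HAPLN3, VCAN and HAPLN2, below the median of all symbols, thus rose above the background median in some of these settings. The count of members past 2 times the median, 1, became 4 by the local median and 2 against protein-coding symbols. The shares of all symbols past these other limits were not computed.

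The count of members with a peak, 6, fell to 2 (ACAN and NCAN) with peaks of 3 kb or more and to 3 with overlaps of 10% of the interval. Peaks of 3 kb or more left 0% cover in VCAN, HAPLN1, BCAN and HAPLN4, and so did peaks of 1 kb or more in BCAN, and the overlap of 10% in VCAN, HAPLN1 and BCAN. With intervals extended by 5 kb cover was 1.60% in BCAN and 6.13% in HAPLN4. ACAN cover was 69.4% to 72.1% in every peak setting. HAPLN2 rests on 184 reads, the fewest of the 8. The IgG library was not analysed here, so low scores cannot be told apart from background reads.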
